A study of Mus musculus with 24 samples.

Results

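Genes that mark microglia and other macrophages were followed in mouse retina: Aif1, Csf1r, Cx3cr1, Itgam, Cd68, C1qa, C1qb, Siglec1, Tyrobp and Trem2. They were chosen by name, as every probe set of the array whose annotated gene symbol is a member's, which gave 18 probe sets for 10 genes among the 22690 probe sets of the table. Retinal total RNA of C57Bl/6 pups was hybridised to 24 arrays, 3 in each of 8 groups. In 4 groups the pups had been in hyperoxia, for 12 hours at postnatal day 7, 24 hours at day 8, 72 hours at day 10 or 120 hours at day 12. The remaining 4 groups were room air pups of these ages. Age and hours of exposure move together in the hyperoxia groups and cannot be told apart. The labels give no oxygen concentration, no number of pups per array and no statement that the 3 arrays of a group came from separate animals, so the p-values rest on the spread among arrays, which may be technical. No group carries a transgene or a drug.

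Microglia are the resident macrophages of the retina. They settle there before birth, spread through the vascular and plexiform layers in the first postnatal weeks, engulf dying neurons and surplus synapses, and lie close to growing vessels. Macrophages of the hyaloid vessels, of vessel walls and of the neighbouring choroid carry most of the same transcripts. The members cover the receptors that keep these cells alive and in place (Csf1r, the receptor of CSF1 and IL-34, and Cx3cr1, the fractalkine receptor), an adhesion and complement receptor chain (Itgam, also called CD11b), a receptor and adaptor pair (Trem2 and Tyrobp, which carries its signal), chains of the complement starter C1q (C1qa and C1qb), a lysosomal protein (Cd68), an actin-binding protein used as a stain for microglia (Aif1, or IBA1) and a sialic acid receptor of tissue macrophages whose gene responds to interferon (Siglec1). In whole retina, fewer such cells and less RNA per cell cannot be told apart.

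Deposited intensities were taken to log2 and quantile normalized. Values below a floor of 7.10, a signal of 136.8, were raised to it, and a probe set was tested where its mean over the 24 arrays reached 7.91. Of the 18 probe sets, 12 from 8 genes were tested and 6 were too dim. All probe sets of Itgam and Trem2 were among the dim ones, as were 2 of the 3 of Siglec1 and 1 of the 2 of Cx3cr1. Array medians of the deposited intensities lay between 570.2 and 679.7. The retinal label was borne out by 9 photoreceptor genes, whose mean log2 level lay between 13.65 and 14.44 on every array. Lens transcripts varied between arrays of the same group: the mean over 14 lens genes ran between 7.52 and 14.06, both extremes falling within room air at day 12.

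RefSeq promoter windows (build GRCm38.p6) were searched for 6 of the members: Aif1, Cx3cr1, Itgam, Cd68, C1qb and Trem2. No window of Csf1r, C1qa, Siglec1 or Tyrobp was searched, so the counts below leave these members out. The windows searched were the 250 bases before the annotated start, for GAGGAA, letters at the core of sites of the myeloid factor PU.1, and for GAAA, any 2 bases and GAAA again, letters of interferon response elements, both on either strand. GAGGAA stood in 5 of the 6 windows, all but that of Cx3cr1, against 23.3% of 32851 windows in the table. The interferon letters stood in 1 of the 6, that of Aif1, against 2.98% of all windows. A match is a description of letters and not a site. The window of Aif1 is shown as the one with both patterns, and that of Cd68 as one with GAGGAA alone. Capitals mark the matches.
Aif1 (chr17:35176053-35176302, minus strand): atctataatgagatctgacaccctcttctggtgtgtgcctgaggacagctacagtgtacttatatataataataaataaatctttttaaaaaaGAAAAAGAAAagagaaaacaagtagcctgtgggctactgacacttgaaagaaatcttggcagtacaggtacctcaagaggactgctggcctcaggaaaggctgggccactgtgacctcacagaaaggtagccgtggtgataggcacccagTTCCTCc
Cd68 (chr11:69666171-69666420, minus strand): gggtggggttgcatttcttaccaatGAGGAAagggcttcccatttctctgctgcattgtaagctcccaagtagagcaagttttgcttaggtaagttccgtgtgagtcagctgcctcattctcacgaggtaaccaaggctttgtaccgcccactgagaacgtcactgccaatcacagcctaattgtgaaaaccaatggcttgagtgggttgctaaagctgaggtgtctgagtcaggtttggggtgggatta
In the Aif1 window the first capitals lie in a run rich in A, and TTCCTC near the end is GAGGAA on the other strand. In the Cd68 window the only match is a GAGGAA far from the start.

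Siglec1 was the only member with a called difference, in a call that rested on a single probe set and was lost without certain single arrays. Its bright probe set, 1427706_a_at, fell between days 7 and 12 in room air, with a log2 difference (day 12 minus day 7) of -1.41 ± 0.36. Among 12 tested member probe sets it was the only one called in any of the 9 comparisons. Of all probe sets, 12.4% were called between these ages in room air. In hyperoxia the same probe set differed by 0.19 ± 0.36 between these ages and did not pass. At day 12 every hyperoxia array lay above every room air array, which held for 4.99% of all probe sets. The difference of 1.86 ± 0.36 did not pass the test (adjusted p = 0.214).

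The log2 values of 1427706_a_at followed the days as follows. At day 7 they were 9.23, 9.40 and 9.45 in hyperoxia, against 8.90, 8.93 and 9.46 in room air. At day 8 they were 8.87, 9.41 and 8.09 in hyperoxia, against 9.05, 8.93 and 9.22 in room air. The groups overlapped on both days. At day 10 they were 8.92, 9.53 and 8.88 in hyperoxia, against 8.12, 8.51 and 8.57 in room air, and at day 12 they were 9.51, 9.76 and 9.36 in hyperoxia, against 8.87, 7.10 and 7.10 in room air. On these later days all 3 hyperoxia arrays lay above all 3 room air arrays. The last 2 room air values are at the floor, where the deposited intensities were 98.1 and 72.3, while room air replicate 1 at day 12 had 444.9 and stayed among the values of earlier days. Differences that involve these 2 arrays are therefore understated and depend on the floor.

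**Figure D1:**
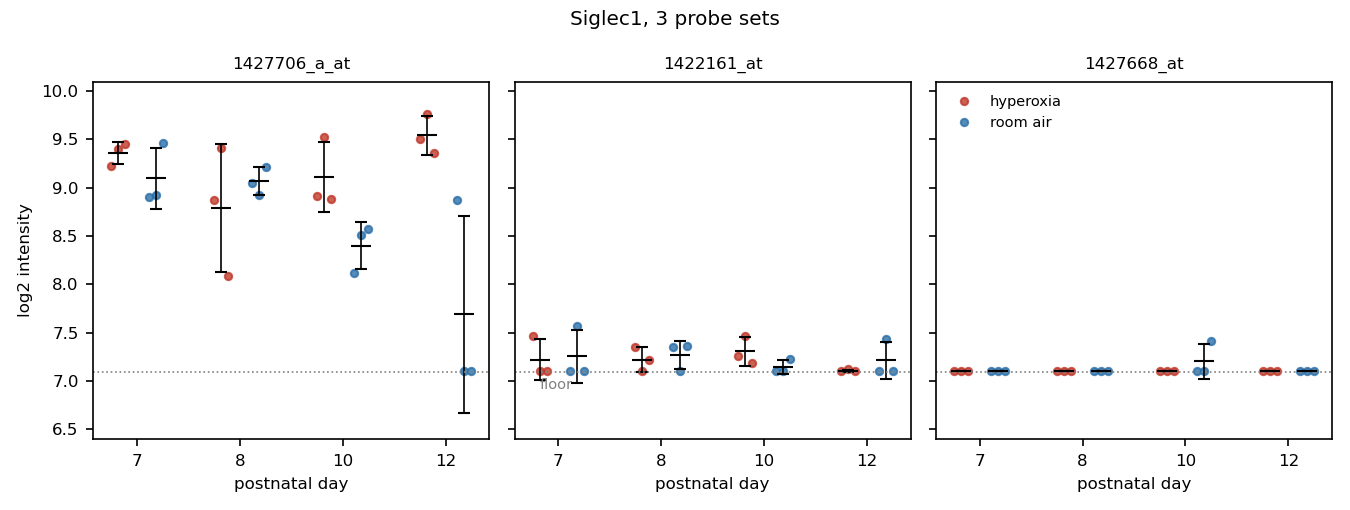
Log2 intensity of the 3 Siglec1 probe sets by postnatal day, with each array as a point, hyperoxia (red) left of room air (blue), and black bars for mean and SD of 3 arrays. The dotted line is the floor of 7.10. Probe set 1427706_a_at separates at days 10 and 12, with 2 of the 3 room air arrays of day 12 at the floor, while the other probe sets lie at or near the floor in all groups.

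In room air, 1427706_a_at averaged 7.69 ± 1.02 at day 12 and 9.10 ± 0.32 at day 7 (SD, n = 3 each), and the arrays of the 2 ages did not overlap. The limma fit over all 24 arrays gave an adjusted p of 0.0135 and a 95% interval of the difference of -2.16 to -0.65. It was 1 call among 12 member probe sets, where 12.4% of the 15838 tested probe sets were called between these ages, 5.21% lower and 7.16% higher, so the members' share was close to that of all probe sets. Arrays of the 2 ages lay apart for 14.3% of probe sets in the lower direction and 14% in the higher. The call rested on single arrays: it was lost without room air replicate 2 or 3 of day 12 (adjusted p = 0.0835 and 0.079, with differences of -1.11 in both) and without room air replicate 3 of day 7 (adjusted p = 0.075, difference -1.23). Without room air replicate 1 of day 12 the difference was -2.00.

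In hyperoxia, the same probe set averaged 9.55 ± 0.20 at day 12 and 9.36 ± 0.12 at day 7 (SD, n = 3 each), and the 95% interval of the difference ran from -0.57 to 0.94. In hyperoxia 0 of 12 member probe sets were called between these ages, against 12.6% of all, and 2 of 12 had an unadjusted p under 0.05, against 25.6%. In room air the count at that unadjusted p was 2 of 12 too, against 25.8%. The change in the hyperoxia effect between days 7 and 12 was 1.59 ± 0.51 (adjusted p = 0.715), so the 2 courses were not shown to differ once all probe sets were counted. Compared over all 4 days, the effect gave F = 6.29 (adjusted p = 0.641). Neither comparison called any probe set by limma, 0% of 15838, with 982 (6.2%) and 1039 (6.56%) at an unadjusted p below 0.05, 1 member probe set, that of Siglec1, among each.

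At day 12 the difference between hyperoxia and room air had a 95% interval of 1.10 to 2.62 and an unadjusted p of 5.4e-05. In that comparison 2 probe sets, 0.0126% of those tested, were called, neither a member's. The result turned on 1 array. Without room air replicate 1 of day 12, the difference was 2.45 ± 0.28 with an adjusted p of 0.000841, the single call of that fit, and over the fits that left out 1 array of day 12 the adjusted p ran between 0.000841 and 0.593. At day 10 the difference was 0.71 ± 0.36 (adjusted p = 0.479). Probe sets whose arrays did not overlap in the higher direction made up 9.64% at day 10 and 4.99% at day 12, and in the lower direction 11.9% and 6.69%. At days 7 and 8, 0 members lay apart, against 4.14% and 4.48% of probe sets higher and 2.91% and 5.49% lower. Averaged over the 4 days, Siglec1 was at 0.64 ± 0.18 (adjusted p = 0.185), and at 0.79 with an adjusted p of 0.00499 without the same array. The comparisons of room air day 12 with day 7 and of hyperoxia with room air at day 12 share the 3 room air arrays of day 12.

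The other Siglec1 probe sets were too dim to be tested. Probe set 1427668_at was at the floor on 23 of 24 arrays, and 1422161_at was at the floor on 12 and did not exceed 7.57 on any. At day 12 the deposited intensities of 1422161_at were 26, 157.2 and 75.8 in hyperoxia, against 129.8, 171 and 79 in room air, with no separation. Its log2 mean on that day was 7.10 in hyperoxia, against 7.21 in room air, so it did not repeat the direction of the bright probe set. The pattern of Siglec1 thus rests on 1 of its 3 probe sets.

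Lens transcripts differed between the same arrays. At day 12 the lens score was 8.10, 13.85 and 13.97 in hyperoxia, against 7.52, 11.13 and 14.06 in room air, and the room air array with the lowest lens score was the one with the highest Siglec1. In hyperoxia Siglec1 was 9.51 on the array with a score of 8.10, 9.76 on that with 13.85 and 9.36 on that with 13.97. The mean over all tested member genes, Siglec1 included, was 9.77, 9.21 and 9.08 on the same room air arrays, in the order given above. On the hyperoxia arrays that mean was 9.58, 9.67 and 9.53. The part of lens tissue in this order of the members was not tested. With lens and pigment scores as covariates, the day 12 difference was 1.94 ± 0.36 (adjusted p = 0.127) and the room air difference between ages was -1.28 ± 0.39 (adjusted p = 0.0486).

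No member passed the test between hyperoxia and room air on any day. Across the 4 days, 0 of the 12 tested member probe sets were called between hyperoxia and room air, against 0.0631% of all probe sets at day 7, 0.0821% at day 8, 0.0631% at day 10 and 0.0126% at day 12. Without adjustment, limma's p was below 0.05 for 0 members at days 7, 8 and 10, against 3.18%, 4.92% and 10.9% of all probe sets, and for 2 at day 12, Siglec1 and Aif1, against 8.73%. Median differences of the 12 were 0.02, -0.05, -0.02 and -0.10 at days 7, 8, 10 and 12, where the medians of all tested probe sets were 0.01, 0.00, -0.00 and -0.00. Averaged over the 4 days, 78 probe sets were called, 0.492%, none of them a member's, and 1 member, Siglec1, had an unadjusted p below 0.05, against 8.94% of all. Without Siglec1, the 95% intervals of the other 11 for that average all held 0 and lay within -0.54 and 0.32, or 0.687-fold and 1.25-fold.

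**Figure D2:**
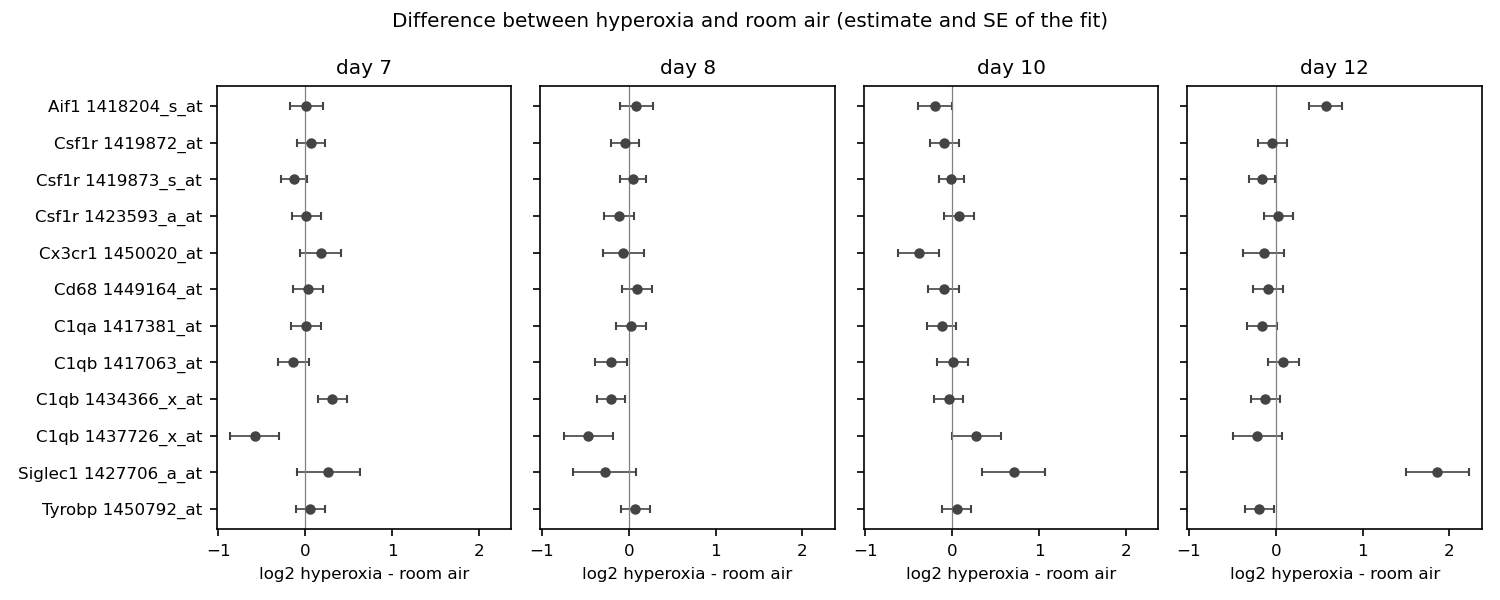
Log2 hyperoxia minus room air for the 12 tested member probe sets at each postnatal day, as the estimate and standard error of the fit over 24 arrays. The estimates of Csf1r lie between -0.15 and 0.08, while Siglec1 reached 0.71 at day 10 and 1.86 at day 12, and Aif1 0.57 at day 12.

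Csf1r, on which microglia depend for survival, kept a narrow range in all groups. Its brightest probe set, 1419872_at, was 11.42, 11.68 and 11.31 in hyperoxia, against 11.15, 11.69 and 11.37 in room air, at day 7. At day 12 it was 11.70, 11.42 and 11.74 in hyperoxia, against 11.97, 11.65 and 11.36 in room air. Hyperoxia and room air arrays of the same day overlapped on all 4 days, and the differences between them for its 3 probe sets ran between -0.15 and 0.08. The difference between days 12 and 7 was 0.15 ± 0.16 in hyperoxia and 0.26 ± 0.16 in room air for 1419872_at.

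Cx3cr1, which binds the neuronal chemokine fractalkine, had its lowest group mean at day 7 in room air and its highest at day 10 in room air. At day 7 its bright probe set, 1450020_at, was 9.48, 9.82 and 9.45 in hyperoxia, against 9.39, 9.80 and 9.01 in room air. At day 10 it was 9.76, 9.59 and 9.78 in hyperoxia, against 10.21, 10.17 and 9.93 in room air. All 3 hyperoxia arrays of day 10 were below all 3 room air arrays, which held for 11.9% of tested probe sets in that direction, and the difference of -0.39 ± 0.23 did not pass (adjusted p = 0.548). By day 12 the groups overlapped again, at 9.68, 10.11 and 9.36 in hyperoxia, against 10.24, 9.92 and 9.42 in room air. The dim probe set 1450019_at had its highest mean, 7.93, at day 8 in hyperoxia, so the probe sets of this gene did not share an order.

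The C1q chains are made in the retina mainly by microglia. C1qa was 9.89, 10.01 and 9.84 in hyperoxia, against 9.61, 10.31 and 9.79 in room air, at day 7. At day 10 it was 10.17, 10.43 and 10.40 in hyperoxia, against 10.63, 10.45 and 10.29 in room air, and at day 12 it was 10.18, 10.09 and 10.12 in hyperoxia, against 10.52, 10.25 and 10.09 in room air. Group means of C1qa were lowest at day 7 and highest at day 10 in both conditions. Between days 12 and 7 it differed by 0.21 ± 0.17 in hyperoxia, where the arrays did not overlap (as for 11.7% of probe sets in that direction), and by 0.39 ± 0.17 in room air (adjusted p = 0.153). Without room air replicate 2 of day 7 the room air difference was 0.59 and was called (adjusted p = 0.0226), and without replicate 1 of day 7 it was 0.24, with adjusted p between 0.0226 and 0.457 over these fits.

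C1qb had 3 tested probe sets that did not move together. The brightest, 1417063_at, had the narrowest range of group means of all 12, 0.28, and differed by -0.20 to 0.08 between hyperoxia and room air. The dimmest, 1437726_x_at, was 8.53, 8.80 and 8.88 at day 10 in hyperoxia, against 8.65, 8.30 and 8.43 in room air. At day 7 it was 8.09, 7.21 and 7.73 in hyperoxia, against 8.39, 8.58 and 7.81 in room air, a difference of -0.58 ± 0.28 (adjusted p = 1), while 1434366_x_at was at 0.31 ± 0.17 in the same comparison. Single arrays moved both: 1437726_x_at was at -0.35 without hyperoxia replicate 2 of day 7, and 1434366_x_at at 0.16 without hyperoxia replicate 1. The names of the 2 dimmer probe sets end in x, which marks probes that may bind more than 1 transcript.

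Tyrobp, the adaptor that signals for TREM2 and related receptors, and Cd68, a glycoprotein of lysosomes, were lowest at day 12. Tyrobp was 9.54, 9.30 and 9.38 at day 12 and 9.74, 9.89 and 9.79 at day 7 in hyperoxia, with no overlap and a difference of -0.40 ± 0.16 (adjusted p = 0.129). In room air it was 10.03, 9.49 and 9.27 at day 12 and 9.51, 9.81 and 9.92 at day 7, and the difference was -0.15 ± 0.16. Cd68 was 8.05, 8.20 and 8.25 at day 12 and 8.46, 8.88 and 8.53 at day 7 in hyperoxia, again without overlap (difference -0.45 ± 0.18, adjusted p = 0.101). Its room air values were 8.55, 8.21 and 8.00 at day 12 and 8.48, 8.67 and 8.62 at day 7 (-0.34 ± 0.18, adjusted p = 0.237). Arrays without overlap in the lower direction made up 14.8% of probe sets between these ages in hyperoxia. Between them the 2 genes had the most alike profiles among members, with a Pearson r of 0.95 over the 8 group means.

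Aif1 was dim, between 7.30 and 8.47 on all arrays. At day 12 it was 8.26, 8.47 and 8.02 in hyperoxia, against 8.23, 7.30 and 7.49 in room air, and the groups overlapped through room air replicate 1. The difference was 0.57 ± 0.19 (adjusted p = 0.428). The 2 low room air arrays are the 2 on which Siglec1 was at the floor. This was not a trait of these genes alone. Room air replicate 1 of day 12 was also the highest of its group for Cx3cr1, Cd68, C1qa, Tyrobp and the brightest Csf1r probe set. It was not the highest for the brightest C1qb probe set. At day 10 hyperoxia was the lower group for Aif1, with 7.92, 8.10 and 7.93, against 8.37, 8.12 and 8.06 in room air. The difference was -0.20 ± 0.19, and the groups overlapped. Between days 12 and 7, Aif1 differed by 0.25 ± 0.19 in hyperoxia and by -0.31 ± 0.19 in room air. The room air difference turned on single arrays: without room air replicate 1 of day 12 it was -0.59 and was called (adjusted p = 0.0313), and without replicate 2 it was -0.12, with adjusted p between 0.0313 and 0.776 over these fits.

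**Figure D3:**
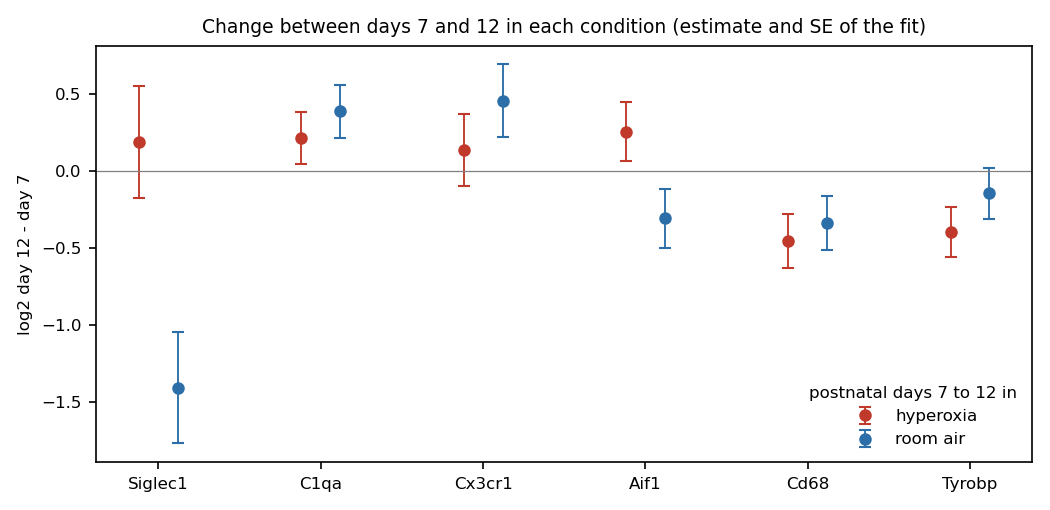
Log2 day 12 minus day 7 for the tested probe set of 6 members, in hyperoxia (red) and room air (blue), as estimate and standard error of the fit. Only the room air change of Siglec1, at -1.41, passed the test. Aif1 and Siglec1 have opposite signs in the 2 conditions, a difference that did not pass its own test.

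Itgam and Trem2 could not be followed. The Itgam probe set was at the floor on 14 of 24 arrays and reached at most 7.69, with its highest group mean, 7.45, at day 12 in room air. Of the Trem2 probe sets, 1421792_s_at was at the floor on all 24 arrays and 1421226_at on 3, with group means between 7.47 and 7.89. With no filter, 0 of the 6 dim member probe sets were called in any comparison that gives a log2 difference. The share of all probe sets called without the filter is not given here. Probe set 1421792_s_at, at the floor on all 24 arrays, could not have been called.

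Over the 8 groups, the spans between the highest and lowest group mean of the tested members ran between 0.28 and 1.86, with a median of 0.52, beside a median of 0.45 for all tested probe sets. The largest, that of Siglec1, was reached by 0.751% of all tested probe sets. In each of the 12 probe sets, no 2 groups that stood next to each other in the order of means were free of overlap between their arrays. This was not counted over all tested probe sets, so it is not shown to be particular to the members. The members also did not share a profile: against the mean of the other members, r over the 8 group means ran between -0.30 for Csf1r and 0.44 for Cd68. The mean standardized profile of the 8 genes was highest at day 10 in room air, at 0.70, and lowest at day 12 in room air, at -0.61. The genes most like this mean were Dnajc14, a co-chaperone, at r = 0.94, Gtpbp3, which modifies mitochondrial transfer RNA, at 0.91, and Wac at 0.91. Of the 10 most alike, Lpl, a lipase found in activated microglia, at 0.88, stood in one of the macrophage lists. These r are descriptions over 8 means that share the arrays.

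**Figure D4:**
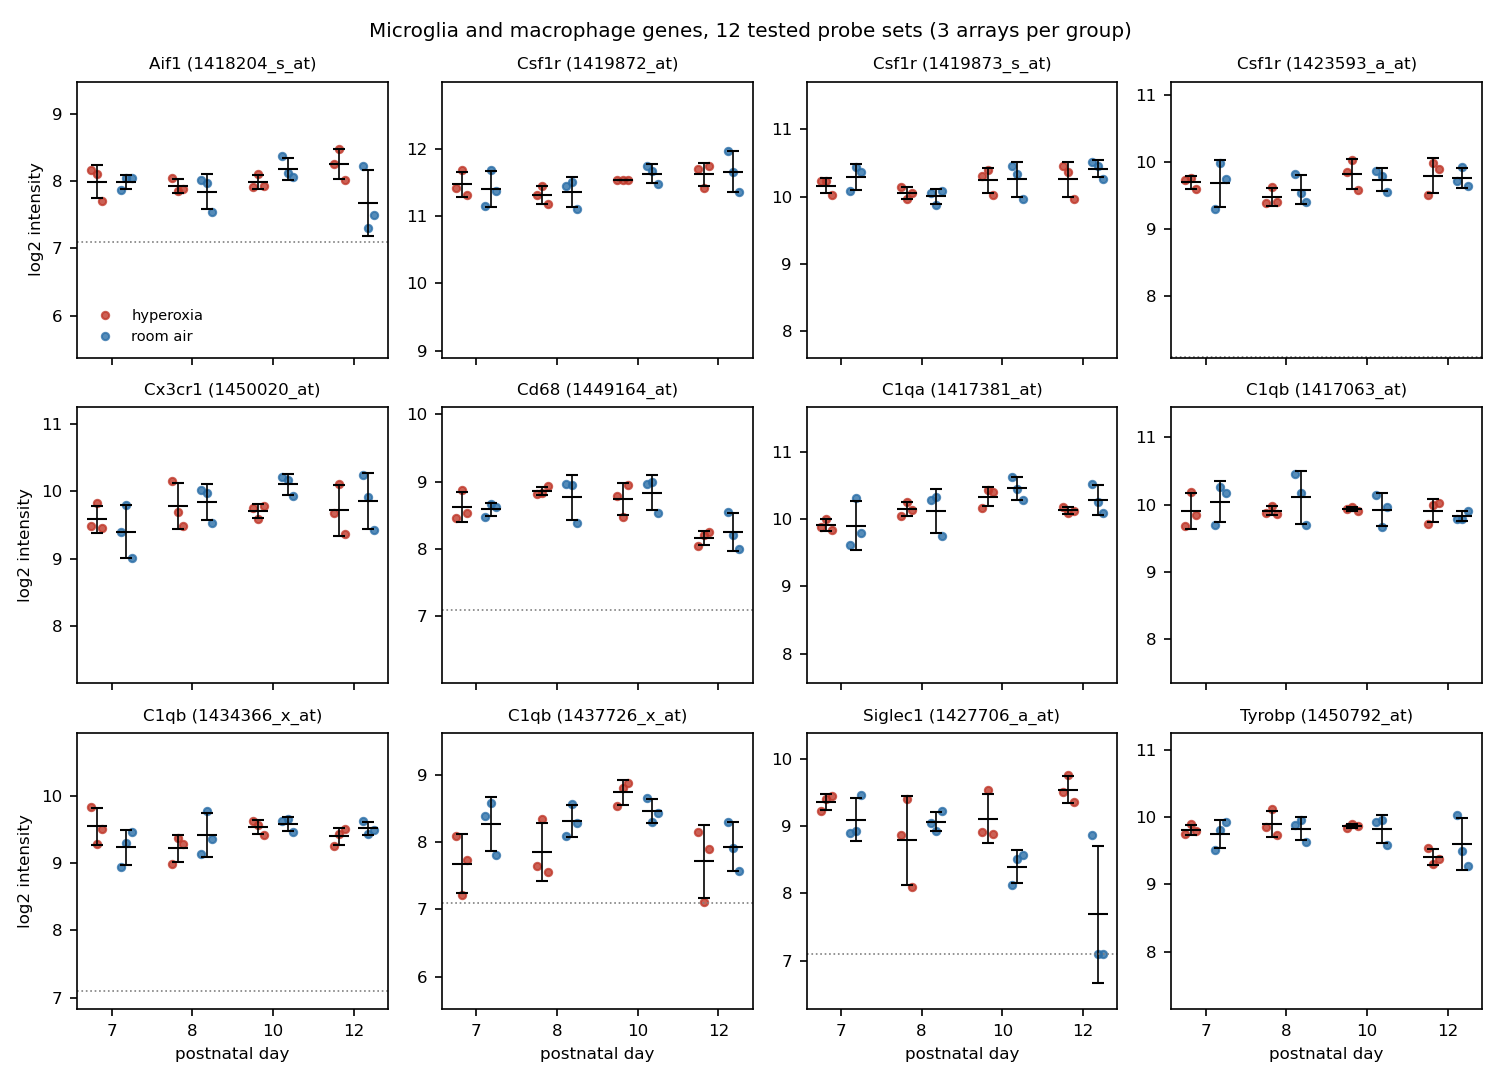
Log2 intensity of the 12 tested member probe sets by postnatal day, each array as a point, hyperoxia (red) left of room air (blue), with mean and SD of 3 arrays in black. Every panel spans the same number of log2 units, and the dotted line marks the floor of 7.10 where that level falls within the panel. Siglec1 has the widest span of group means, 1.86, against a median of 0.52.

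Further genes of the lineage were read from lists, each gene by its brightest tested probe set. At day 12, 0 genes of any list were called between hyperoxia and room air, so the genes named for that day are those of lowest p and none passed. Among 9 tested genes of homeostatic microglia, 5 were higher and 4 lower, with a median difference of 0.04, and Cst3, a secreted protease inhibitor, was at -0.13 ± 0.11 and Fcrls at -0.18 ± 0.16. The 8 myeloid transcription factors had a median of 0.13, with Irf8, a factor needed for microglia, at 0.43 ± 0.20 and Bhlhe41 at -0.34 ± 0.22. The 6 genes of complement and Fc receptors had a median of 0.18, among them Itgb2, the partner chain of CD11b, at 0.50 ± 0.29 and the Fc receptor Fcgr2b at 0.48 ± 0.23.

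The medians of 4 further lists lay between -0.02 and 0.06 at day 12. The 15 genes of lysosome and phagocytosis had a median of 0.01, with Pros1, a bridging ligand, at -0.28 ± 0.16 and its receptor Mertk at 0.28 ± 0.17. The 10 pan-leukocyte genes and TYROBP partners had a median of 0.06, with Plcg2, an enzyme downstream of TREM2 and TYROBP, at 0.49 ± 0.20 and Sirpa, the receptor of CD47, at 0.23 ± 0.13. The 9 genes of activated microglia had a median of -0.02, with the glucan receptor Clec7a at 0.44 ± 0.28 and the integrin chain Itgax at 0.28 ± 0.19. The 6 genes of antigen presentation had a median of -0.02, with Cd74, the invariant chain, at -0.24 ± 0.20 and H2-D1 at -0.13 ± 0.14. The median of all tested probe sets was -0.00.

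Of 9 tested interferon-stimulated genes, 3 were higher and 6 lower in hyperoxia at day 12, with a median difference of -0.09. Ifih1, a sensor of viral RNA, was at -0.79 ± 0.23 (adjusted p = 0.358) and Ifitm3 at -0.29 ± 0.16. Between days 12 and 7 in room air, Irf7, a master factor of the interferon response, rose by 0.64 ± 0.17 (adjusted p = 0.0157). It was 1 called gene of 9, where 12.4% of all probe sets were called in that comparison, 7.16% higher and 5.21% lower.

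Markers of perivascular and hyaloid macrophages, other cells the samples could hold, did not pass with oxygen at day 12. Of 14 such genes on the array, 7 were tested, 4 higher and 3 lower in hyperoxia, and their score lay between 8.47 and 8.82 in hyperoxia, against 8.51 and 8.63 in room air. Folr2 was at 0.48 ± 0.21 and Ms4a7 at -0.47 ± 0.23. Blood cell markers were mostly dim: 4 of 10 neutrophil genes and 2 of 8 lymphocyte genes on the array were tested. The neutrophil genes Mmp9 and Ltf were at -0.13 ± 0.14 and 0.14 ± 0.22, and the lymphocyte genes Cd8a and Ms4a1 at 0.44 ± 0.23 and -0.49 ± 0.28. Alas2, the single erythroid gene tested, was at -1.82 ± 0.39 at day 12 (adjusted p = 0.304).

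All 13 endothelial genes were lower in hyperoxia at day 12, with a median of -0.45 and scores between 9.20 and 9.44 in hyperoxia, against 9.68 and 9.98 in room air. Eng and Cldn5, proteins of vessel walls, were at -0.93 ± 0.22 and -0.81 ± 0.19. Among markers of the neural retina and its neighbours, the glial genes Gfap and S100b were at 0.41 ± 0.17 and 0.23 ± 0.19, and the photoreceptor genes Crx and Sag at 0.20 ± 0.13 and -0.16 ± 0.10. The pigment genes Tyr and Tyrp1 were at 0.50 ± 0.42 and 0.18 ± 0.47, and the lens genes Cryga and Bfsp1 at 2.31 ± 1.81 and 1.00 ± 1.19. Apart from the fit with lens and pigment scores as covariates, the part of these cells in the Siglec1 difference was not tested.

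Between days 12 and 7 in room air, 12.4% of all probe sets were called, 7.16% higher and 5.21% lower. These shares are to be set beside each count in the lineage lists, by direction. P2ry12, the purine receptor that marks resting microglia, rose by 0.62 ± 0.17 (adjusted p = 0.0196), and Tgfbr1, a receptor of TGF-beta signals, differed by -0.45 ± 0.12 and so fell (adjusted p = 0.0149), the 2 called genes of 9 on the homeostatic list (median 0.27). Cebpb and Runx1 rose by 0.82 ± 0.20 and 0.57 ± 0.18, the 2 called of 8 transcription factors (median 0.03, 4 higher and 4 lower). Apoe, a lipid carrier made by glia, and Cd9, a tetraspanin, rose by 0.68 ± 0.19 and 0.43 ± 0.12. They were the 2 called of 9 genes of activated microglia (median 0.11, 6 higher and 3 lower). Gas6, a bridging ligand of phagocytosis, rose by 1.05 ± 0.19 and Ctsb, a lysosomal protease, by 0.39 ± 0.10. These were the 2 called of 15 genes of lysosome and phagocytosis (median 0.20, 10 higher and 5 lower). Lyve1, a hyaluronan receptor of some macrophages and of lymphatic vessels, rose by 2.21 ± 0.22. It was 1 called of 7 macrophage genes, of which 3 were higher and 4 lower (median -0.05).

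In the same comparison 0 of 6 genes of complement and Fc receptors, 0 of 10 pan-leukocyte genes and 0 of 6 genes of antigen presentation were called. Those of lowest p were Fcgr3 at 0.49 ± 0.28 and C3ar1 at -0.35 ± 0.25, Ly86 at 0.41 ± 0.19 and Clec7a at -0.52 ± 0.28, and H2-K1 at 0.44 ± 0.19 and H2-D1 at 0.30 ± 0.14.

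Markers of other retinal cells differed between these ages in room air too. Of 9 genes of Mueller glia and astrocytes, 5 were higher and 4 lower, with a median of 0.31. The 2 called were Aqp4, a water channel, which rose by 2.62 ± 0.20, and Glul, glutamine synthetase, by 1.40 ± 0.16. The glial score lay between 11.16 and 11.32 at day 12, against 10.71 and 10.83 at day 7. Of 9 photoreceptor genes, 8 were higher and 1 lower, and 5 were called higher. Among these, Gnat1 rose by 2.59 ± 0.30, Prph2 by 1.43 ± 0.27, Rom1 by 0.49 ± 0.10 and Rcvrn by 0.51 ± 0.11. All 9 genes of pigment epithelium were higher and 1 was called, Ttr, which rose by 1.37 ± 0.44. Eng and Esam rose by 0.80 ± 0.22 and 0.68 ± 0.21, 2 called of 13 endothelial genes, and Mmp9 by 0.90 ± 0.14, 1 called of 4 neutrophil genes. Of 14 lens genes 12 were lower and 0 called, with Cryaa at -1.67 ± 2.16 and Cryba1 at -1.34 ± 1.83. The lymphocyte genes Cd8a and Ms4a1 were at -0.29 ± 0.23 and -0.14 ± 0.28, and Alas2 at 0.24 ± 0.39. The part of these cells in the rises of Apoe, Gas6, Lyve1 and the other list genes was not tested.

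Ligands of the member receptors also differed between days 12 and 7 in room air. Of 8 tested, 6 were higher and 2 lower, and 3 were called higher, where 7.16% of all probe sets were. The median difference was 0.37, beside -0.03 for all tested probe sets. Cx3cl1, the fractalkine bound by CX3CR1, rose by 0.91 ± 0.14 (adjusted p = 0.000188), and Clu, a chaperone bound by TREM2, by 1.89 ± 0.19. Apoe, another ligand of TREM2, is in this list too. Clu and Apoe are also made by glia. Of 9 glial markers, 5 were higher and 4 lower in this comparison, and the 2 called, Aqp4 and Glul, rose by 2.62 and 1.40. The part of glia was not tested. In hyperoxia 5 of the 8 were higher and 3 lower between the same ages, with a median of 0.21. The 2 called were both higher, where 12.6% of all probe sets were called in either direction. At day 12, 7 of the 8 were lower in hyperoxia than in room air (median -0.15), with Clu at -0.25 ± 0.19 and Csf1, a ligand of CSF1R, at -0.20 ± 0.17.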

How the data were processed

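For each of 24 arrays the authors deposited linear intensities of 22690 probe sets, by software and scaling that the labels do not name. After trimming 2% at each end, array means lay between 1500.35 and 1500.4, while medians spanned 0.253 on the log2 scale. These deposited intensities were therefore taken to log2 and quantile normalized. The floor was the 20th percentile of all values. Tests omitted 64 controls and every probe set whose mean lay under the 30th percentile. This left 15838 probe sets, with 0.349% of values at the floor.

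Names came from the platform annotation: 20380 probe sets had 1 symbol, 691 several and 1555 none. All 18 member probe sets matched a RefSeq gene by identifier.

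Comparisons were contrasts in 1 limma fit (version 3.58.1, R 4.3.3) over 8 groups, with calls made below 0.05 after Benjamini-Hochberg adjustment. All differences are log2 with the standard error of the fit. A list score is the mean log2 over a list's tested genes. All member probe sets are named; from other lists, up to 4 called genes of lowest p, or 2 where none was called. Members and lists were chosen with earlier results of these data known. Simulated data with 200 of 15838 probe sets changed gave a recovery at day 12 (hyperoxia minus room air) of 40% of 1.5-fold, 70% of 2-fold and 94% of 3-fold changes, with 7 false calls, and for day 12 minus day 7 in room air of 16%, 84% and 92%, with 6. The recovered shares hold only for data with 200 changed probe sets. At day 12 the arrays gave 2 calls, and Siglec1 did not pass at 1.86, so the shares do not carry over. The number of arrays limits the precision. Deviations of same-numbered hyperoxia and room air arrays correlated over 0.1 in all 3 pairs of day 12, and in 2 of the 9 pairs of the other days; scaling, floor, filter, prior, covariates, block and single arrays were varied. Figures used matplotlib 3.10.9.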

Additional observations from a re-analysis of the deposited data

How the results depend on the processing

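The count of called members kept its value of 0 under the changed scaling, floor, filter, prior, covariates, block and set of arrays in 8 of 9 comparisons, apart from fits without room air replicate 1 of day 12. The exception was day 12 minus day 7 in room air: Siglec1 was the 1 call, and the count was 0 with the filter at the 50th percentile, where its probe set was not tested, which also moved the median member difference to 0.19. Leaving out single arrays, the count ran from 0 to 2 there, from 0 to 1 for hyperoxia minus room air at day 12, from 0 to 1 for the average over the days, and was 0 elsewhere. The room air difference of Siglec1 ran from -2.00 to -1.11 over those fits, the day 12 difference from 1.56 to 2.45, the average from 0.56 to 0.79, and the day 8 difference from -0.59 to 0.073, changing sign without hyperoxia replicate 3 of day 8. The room air difference of Siglec1 was -0.86 with the floor at the 30th percentile and -1.82 at the 5th (adjusted p = 0.0488 and 0.00883), and the day 12 difference 1.31 and 2.27. Fitted on the 6 day 12 arrays alone, Siglec1 had an adjusted p of 0.895. Same-numbered arrays correlated over 0.1 in 5 of 12 pairs. At day 12 all 3 did, from 0.23 to 0.45, a hint of pairing on that day, which the labels do not state. The 6 other pairs of day 12 ran from -0.34 to -0.03. Deviations within a group sum to 0, so these negative values are no separate support. Differently numbered arrays of day 7 reached 0.31. With the 3 same-numbered pairs of day 12 as a replicate block, a setting also chosen after seeing the data, Siglec1 at day 12 was at 1.86 ± 0.33 (adjusted p = 0.0697) and the count of called members stayed at 0. With the replicate block on all days Siglec1 in room air was at -1.41 ± 0.37 (adjusted p = 0.0167), and no member count changed. Without the 2 arrays farthest from their groups, a setting chosen after seeing the data, no member count changed either. Over these settings the calls among all probe sets ran from 0 to 18 at day 7, 0 to 17 at day 8, 3 to 34 at day 10 and 0 to 4 at day 12, and between days 12 and 7 from 651 (lens and pigment covariates) to 2357 in hyperoxia and from 1319 (the same covariates) to 2286 in room air. Dim probe sets limit what is known of Itgam, Trem2 and the other Siglec1 probes.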
